A study of Rattus norvegicus with 6 samples.

Results

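Glutathione S-transferases were followed through 10 genes in kidney cortex from male rats of the Sprague-Dawley strain: Gsta2, Gsta3 and Gsta4 of the alpha class, Gstm1, Gstm2 and Gstm3 of the mu class, Gstp1 of the pi class, Gstt1 and Gstt2 of the theta class, and the microsomal Mgst1. They were found by the RefSeq accession that the array files give for a probe, which led to 18 probes for the 10 genes among 32428 tested features, 11815 of them with a gene symbol. The study gave corn oil to 3 rats and o-nitroanisole at 400 mg/kg/day to 3 rats, both for 4 weeks, and hybridised the cortex RNA of each rat to its own one-colour Agilent array. The rats were 5 weeks old when bought and received a basal diet. Whether the o-nitroanisole was dissolved in corn oil is not given in the sources used here.

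Glutathione S-transferases join the sulfur of glutathione to electrophilic compounds, which makes them more soluble and less reactive. The cytosolic enzymes work as pairs of subunits drawn from 1 class, and the microsomal enzyme belongs to a separate family of membrane proteins. Alpha and mu class enzymes take on a broad range of electrophiles, the rat pi enzyme is best known as a marker of altered liver foci, and several transferase genes are targets of the antioxidant regulator NRF2. In the kidney, conjugates are trimmed at the brush border of the proximal tubule and leave in urine as mercapturic acids.

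Values are levels, meaning the processed signal of a probe over the 75th percentile of its array, and a difference is the mean log2 level with o-nitroanisole less that with corn oil, given with limma's moderated standard error (SE) and 95% interval. Levels of different probes are not set against each other, since probes bind with different strength. Each array is named by the group and replicate number of its scanner file; the numbers of the corn oil rats differ in the deposited value table and are not settled. Of 13 proximal tubule markers, 13 stood well above background on each of the 6 arrays, and their levels summed to values from 2700 to 2900 in corn oil and from 2770 to 2870 in o-nitroanisole. Bright probes weigh most in such marker sums, so a steady sum does not show a steady share of a cell type. Slide 1 held only corn oil arrays and slide 2 only o-nitroanisole arrays, so group and slide cannot be told apart. In whole cortex, fewer cells of a type and less RNA per cell cannot be told apart either.

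No transferase passed an adjusted p of 0.05 with limma's default moderation, where 0% of all features did. The mean level was higher with o-nitroanisole for 9 of the 10 genes, against 56.0% of all features, and the median difference was 0.40 log2, against 0.03 over all features. In 3 genes, Gsta3, Gstp1 and Mgst1, every o-nitroanisole rat lay above every corn oil rat. Such separation was seen in 27.2% of all features, upward in 17.6% and downward in 9.56%, and 3 of 10 genes is a share near 27.2%. The same 3 genes had an unadjusted p under 0.05, as did 18.9% of all features, 11.8% upward and 7.12% downward.

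**Figure D1:**
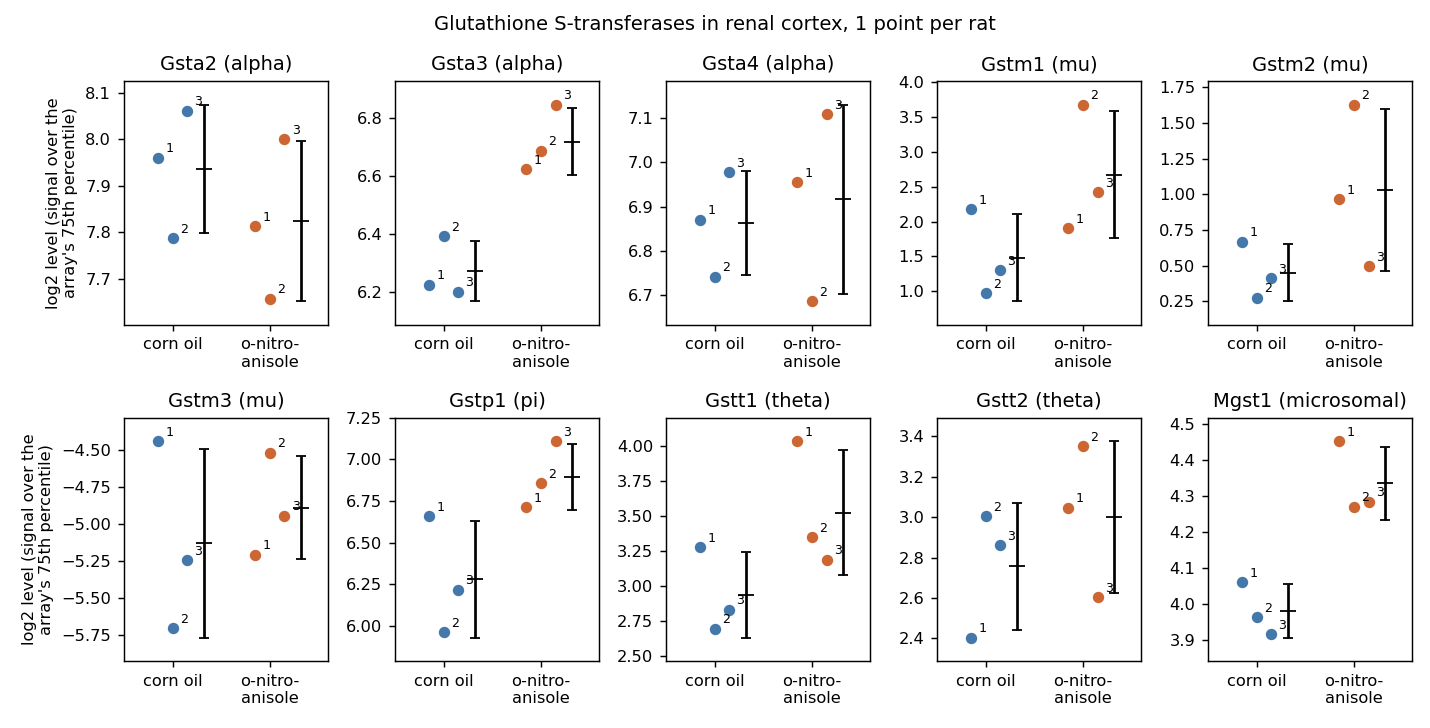
The log2 level of each of the 10 genes is plotted by rat, with 1 panel and its own axis per gene, the rat's replicate number beside each point, and the mean and SD of the 3 rats as a black bar. In Gsta3, Gstp1 and Mgst1 the o-nitroanisole points lie above all corn oil points, and in the other 7 genes the groups overlap.

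Gsta3 encodes an alpha class subunit. Its level was 74.8, 84.0 and 73.6 in corn oil rats 1, 2 and 3, and 98.6, 103 and 115 in o-nitroanisole rats 1, 2 and 3. The 3 treated rats all lay above the highest control. The means were 77.5 ± 5.66 and 106 ± 8.73 (SD, n = 3 each), a 1.37-fold difference of 0.45 ± 0.09 log2 (SE, 95% interval 0.22 to 0.67, limma adjusted p = 0.12). In a second limma setting, which lets the prior spread follow the signal and weighs down outlying variances (trend and robust moderation), Gsta3 passed with an adjusted p of 0.0485. That setting called 1.61% of all features, and 1.24% upward. The call did not hold in any fit that left out 1 array, with an adjusted p between 0.0541 and 0.146.

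Gsta3 was read by 3 probes, and their differences ranged over 0.45, 0.61 and 1.18 log2. The probes at 0.45 and 1.18 share a RefSeq accession, and the probe at 0.61 has another that the gene table gives to the same gene. The brightest, which stands for the gene in the counts, gave the smallest of them. The probe at 1.18 ± 0.20 had levels of 2.87, 3.06 and 2.20 in corn oil and 5.15, 7.77 and 5.57 in o-nitroanisole (limma adjusted p = 0.106, each probe tested singly). The third probe had levels of 46.0, 49.8 and 44.9 against 65.3, 70.9 and 78.8. All 3 probes separated the groups, and the mean over probes differed by 0.74 log2, over 1.5 times the value of the brightest.

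Gsta2, another alpha subunit, went without such a separation. Its level was 249, 221 and 267 in corn oil and 225, 202 and 256 in o-nitroanisole. The ranges overlapped, with the highest value in a corn oil rat and the lowest in an o-nitroanisole rat. The difference was -0.11 ± 0.12 log2 (95% interval -0.40 to 0.18, limma adjusted p = 0.644), and the second probe gave -0.09. Leaving out 1 array moved it between -0.20 and -0.03, and quantile scaling gave -0.26. Gsta4, whose enzyme is known for acting on the lipid peroxidation product 4-hydroxynonenal, lay 0.00, -0.12 and 0.12 log2 from the corn oil mean in the corn oil rats, and 0.09, -0.18 and 0.25 in the o-nitroanisole rats. Here too the groups overlapped, and o-nitroanisole rat 2 was the lowest of the 6. The difference was 0.05 ± 0.13 log2 (95% interval -0.27 to 0.38, limma adjusted p = 0.851), and its sign turned under quantile scaling to -0.09.

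The alpha genes lie in separate clusters, and the other alpha genes on the array were read by the same accession rule. In the RefSeq gene table, Gsta4, Gsta5 and Gsta2 neighbour each other on chromosome 8, and Gsta3, Gsta1 and Gsta6 on chromosome 9. On chromosome 9 the differences were 0.45 ± 0.09 log2 for Gsta3, 0.42 ± 0.07 for Gsta1 and 0.32 ± 0.08 for Gsta6, with limma adjusted p-values of 0.12, 0.108 and 0.152. The groups did not overlap in any of these 3 genes. Gsta1 had levels of 189, 195 and 195 in corn oil and 247, 247 and 280 in o-nitroanisole, and passed with trend and robust moderation (adjusted p = 0.0334). On chromosome 8 the differences were 0.05 ± 0.13 for Gsta4, -0.11 ± 0.14 for Gsta5 and -0.11 ± 0.12 for Gsta2, and the groups overlapped in each. Within both groups, rat 2 had the lowest and rat 3 the highest level of these 3 genes. This division by chromosome was seen in the data and its difference was not tested. Alpha class transcripts resemble each other, and the files hold no probe sequences, so signal shared between neighbours was not tested. The symbol Gsta3 is an older name of Gsta1 in the gene table, and here each name follows the accession.

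**Figure D2:**
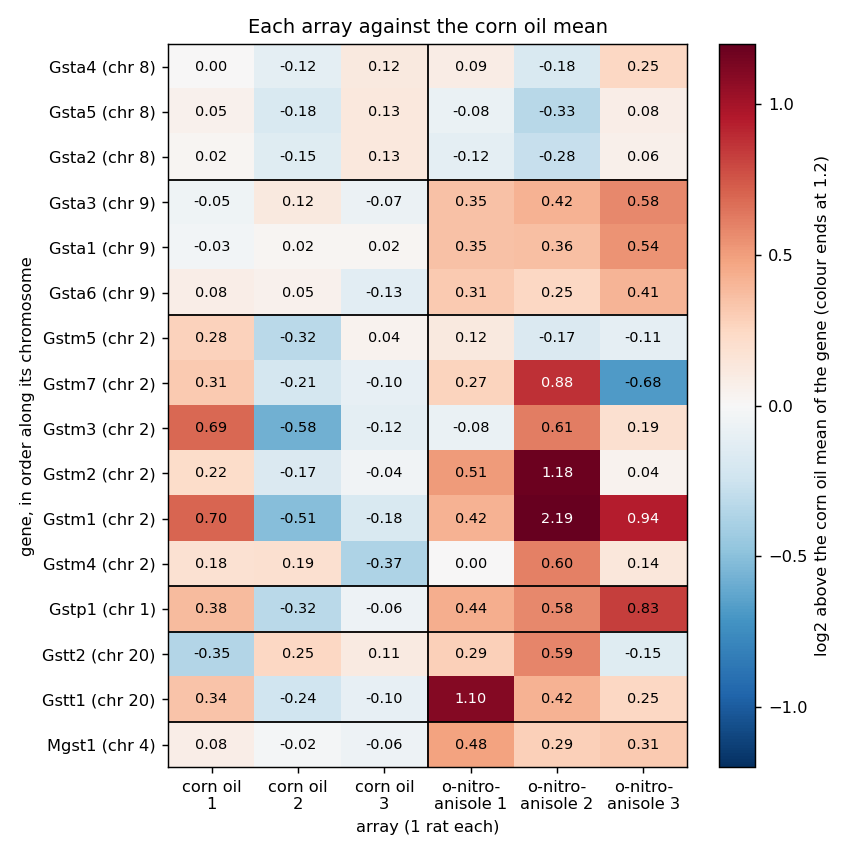
Colours and printed values give the log2 level of each array above the corn oil mean of the gene, for 16 transferases in order along their chromosome, with the 3 corn oil rats on the left and the 3 o-nitroanisole rats on the right. The chromosome 9 alpha genes are above 0 on every o-nitroanisole array, the chromosome 8 alpha genes are not, and Gstm1, Gstm2, Gstm4 and Gstm7 reach their largest values on o-nitroanisole array 2, while Gstm3 and Gstm5 do so on corn oil array 1.

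Mu class differences had wide intervals. Gstm1, a subunit with broad action on electrophiles, had levels of 4.53, 1.96 and 2.46 in corn oil and 3.75, 12.8 and 5.36 in o-nitroanisole. Rat 2 of the treated group stood far above the other two, and corn oil rat 1 lay above o-nitroanisole rat 1. The means were 2.99 ± 1.36 and 7.30 ± 4.82 (SD, n = 3 each), a difference of 1.18 ± 0.53 log2 (95% interval -0.14 to 2.5, limma adjusted p = 0.306). Without o-nitroanisole replicate 2 it was 0.68.

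Gstm2, which neighbours Gstm1 on chromosome 2, had levels of 1.59, 1.21 and 1.33 in corn oil and 1.95, 3.09 and 1.41 in o-nitroanisole. The highest value again came from o-nitroanisole rat 2, and rat 3 lay inside the corn oil range. The difference was 0.58 ± 0.29 log2 (95% interval -0.15 to 1.30, limma adjusted p = 0.359), and 0.28 without o-nitroanisole replicate 2. Gstm3 had levels of 0.0461, 0.0192 and 0.0264 in corn oil and 0.0271, 0.0437 and 0.0325 in o-nitroanisole. Its highest value was in a corn oil rat, and the groups overlapped. The difference of 0.24 ± 0.35 log2 (95% interval -0.64 to 1.12, limma adjusted p = 0.749) turned to -0.05 without corn oil replicate 2 and was 0.59 without corn oil replicate 1.

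Most mu genes had their highest treated value in the same rat. Gstm1, Gstm2, Gstm3, Gstm4 and Gstm7 had their highest o-nitroanisole level in rat 2, at 2.19, 1.18, 0.61, 0.60 and 0.88 log2 above the corn oil mean. In corn oil, rat 1 was the highest and rat 2 the lowest for Gstm1, Gstm2, Gstm3, Gstm5 and Gstm7. Gstm5 departed from the others among the treated rats, with its highest value in rat 1. The 3 further mu genes tested, Gstm4, Gstm5 and Gstm7, differed by 0.24 ± 0.22, -0.05 ± 0.17 and 0.16 ± 0.41 log2, and Gstm6 was well above background on 0 of 6 arrays.

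Gstp1, the pi class enzyme, had levels of 101, 62.4 and 74.4 in corn oil and 105, 116 and 138 in o-nitroanisole. The groups did not overlap, although the gap between corn oil rat 1 and o-nitroanisole rat 1 was small. The means were 79.4 ± 20 and 120 ± 16.8 (SD, n = 3 each), a 1.53-fold difference of 0.61 ± 0.20 log2 (95% interval 0.11 to 1.11, limma adjusted p = 0.201). The other 2 probes gave 0.58 and 0.73 and separated the groups as well. With trend and robust moderation the adjusted p was 0.167.

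Theta class enzymes are known for acting on small halogenated compounds and sulfate esters. Gstt1 had levels of 9.71, 6.48 and 7.11 in corn oil and 16.4, 10.2 and 9.12 in o-nitroanisole. One treated rat, number 1, stood apart, and rat 3 lay below the highest control. The difference was 0.59 ± 0.27 log2 (95% interval -0.07 to 1.25, limma adjusted p = 0.305), and 0.34 without o-nitroanisole replicate 1. Gstt2 had levels of 5.29, 8.02 and 7.27 in corn oil and 8.26, 10.2 and 6.08 in o-nitroanisole, and the groups overlapped. Its difference was 0.24 ± 0.24 log2 (95% interval -0.35 to 0.84, limma adjusted p = 0.621), with 0.20 from the second probe, and leaving out 1 array moved it from 0.07 (without corn oil replicate 1, and likewise without o-nitroanisole replicate 2) to 0.44 (without o-nitroanisole replicate 3). Corn oil rat 1, the highest control for Gstt1, was the lowest for Gstt2.

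Mgst1, a microsomal transferase that also reduces lipid hydroperoxides, had levels of 16.7, 15.6 and 15.1 in corn oil and 21.9, 19.3 and 19.5 in o-nitroanisole. The 3 treated rats lay above all controls, and the spread within each group was small. The means were 15.8 ± 0.806 and 20.2 ± 1.47 (SD, n = 3 each), a 1.28-fold difference of 0.36 ± 0.08 log2 (95% interval 0.16 to 0.55, limma adjusted p = 0.13, and 0.0555 with trend and robust moderation). Mgst3, a related membrane enzyme, differed by 0.18 ± 0.07 log2, and Mgst2 by 0.03 ± 0.18.

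**Figure D3:**
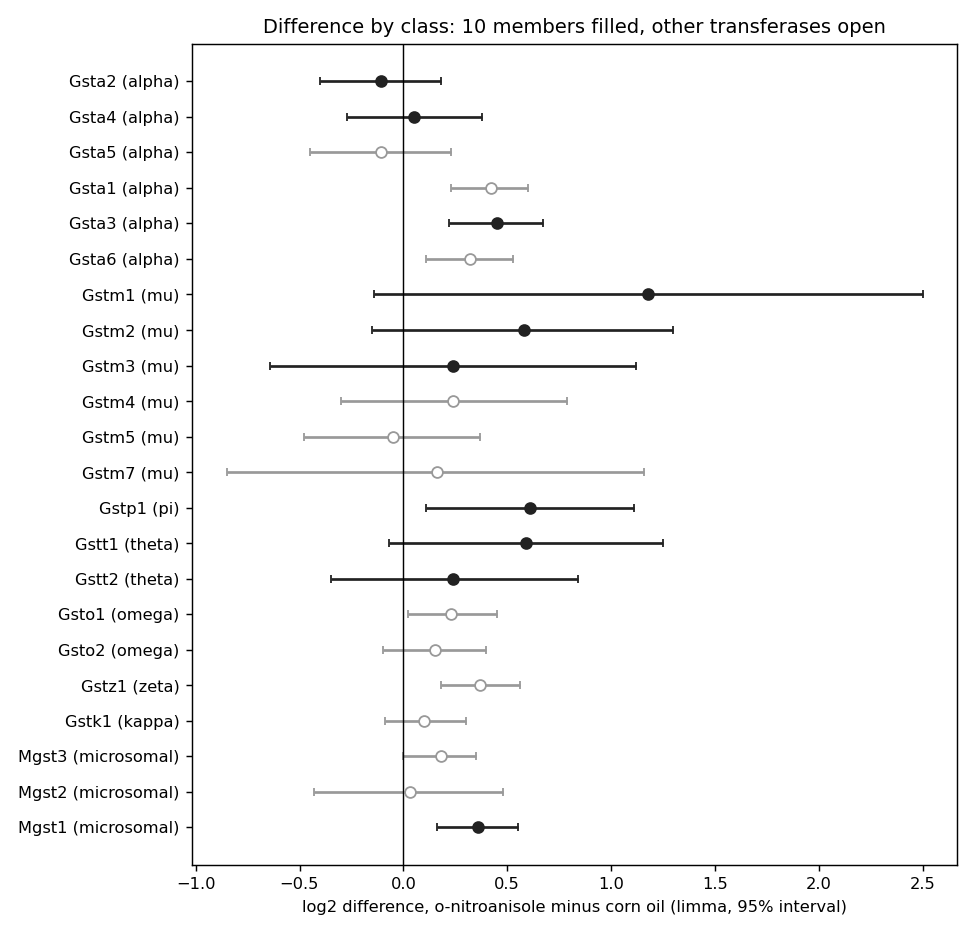
The log2 difference, o-nitroanisole minus corn oil, is drawn with its 95% interval from limma for the 10 transferases (filled) and 12 related ones (open), by class. Intervals of the mu genes are wide, and those of Gsta3, Gstp1 and Mgst1 lie above 0 before adjustment over all features.

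**Figure D4:**
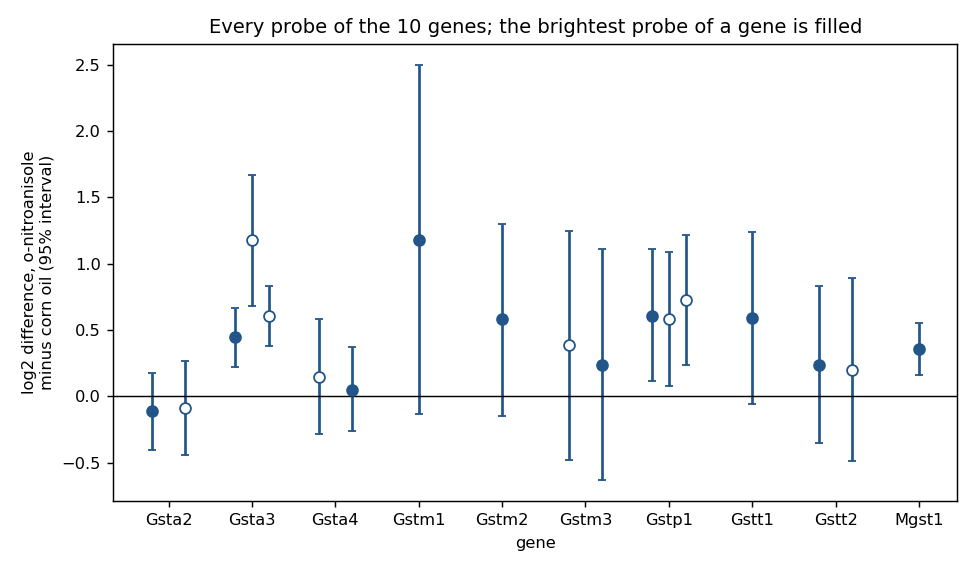
Each point is 1 probe of the 10 genes, with its log2 difference and 95% interval from limma run on single probes, the brightest probe of a gene being filled. Probes of Gsta2, Gsta4, Gstm3, Gstp1 and Gstt2 lie close to each other, while those of Gsta3 spread from 0.45 to 1.18.

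Sequences at the start sites were examined for the genes whose groups did not overlap, with Gsta2 as an alpha gene whose groups did. RefSeq start-site windows on build GRCr8, from 250 bases before to 50 bases after the start base, were given for 8 of the 10 genes (9 windows, 2 of them for Gsta3), the others being Gstt1 and Gstt2. The array headers name another build, rn4, and nothing was converted between the builds. TGACNNNGC, the core of the antioxidant response element that NRF2 binds, and GCGTG, the core bound by the aryl hydrocarbon receptor, were searched on both strands. Capitals mark the matches to either in these windows, written 5′ to 3′ on the strand of the gene, so a match on the opposite strand appears as its reverse complement.
Gsta3, first start site, chr9:31154739-31155038, plus strand: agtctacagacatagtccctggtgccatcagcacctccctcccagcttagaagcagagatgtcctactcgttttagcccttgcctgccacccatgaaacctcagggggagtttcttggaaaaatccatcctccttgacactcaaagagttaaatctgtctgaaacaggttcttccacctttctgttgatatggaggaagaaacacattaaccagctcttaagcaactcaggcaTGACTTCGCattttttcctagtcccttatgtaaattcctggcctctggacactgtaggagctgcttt
Gsta3, second start site, chr9:31166793-31167092, plus strand: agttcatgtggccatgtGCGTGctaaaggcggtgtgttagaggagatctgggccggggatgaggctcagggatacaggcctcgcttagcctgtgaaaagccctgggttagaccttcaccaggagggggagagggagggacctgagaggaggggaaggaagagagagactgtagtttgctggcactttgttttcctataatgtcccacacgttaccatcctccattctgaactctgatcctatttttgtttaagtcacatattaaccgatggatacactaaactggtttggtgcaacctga
Gstp1, chr1:210769656-210769955, minus strand: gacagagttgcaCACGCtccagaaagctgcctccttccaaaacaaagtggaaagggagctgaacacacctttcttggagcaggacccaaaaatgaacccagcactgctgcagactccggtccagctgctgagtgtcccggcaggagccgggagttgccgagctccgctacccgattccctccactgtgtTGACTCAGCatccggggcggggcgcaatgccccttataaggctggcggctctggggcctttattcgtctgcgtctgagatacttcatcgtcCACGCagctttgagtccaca
Mgst1, chr4:172760680-172760979, plus strand: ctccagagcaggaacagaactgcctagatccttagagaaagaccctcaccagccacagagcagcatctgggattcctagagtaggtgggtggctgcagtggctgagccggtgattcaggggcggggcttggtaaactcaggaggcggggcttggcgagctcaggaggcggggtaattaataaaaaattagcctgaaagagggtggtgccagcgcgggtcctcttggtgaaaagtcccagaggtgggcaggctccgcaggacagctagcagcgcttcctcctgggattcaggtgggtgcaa
Gsta2, chr8:88077043-88077342, minus strand: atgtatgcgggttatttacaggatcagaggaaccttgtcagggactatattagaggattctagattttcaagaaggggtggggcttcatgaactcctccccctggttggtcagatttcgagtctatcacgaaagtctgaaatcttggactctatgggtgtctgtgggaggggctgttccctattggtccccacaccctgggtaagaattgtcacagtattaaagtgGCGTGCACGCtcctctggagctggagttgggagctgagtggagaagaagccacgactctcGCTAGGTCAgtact

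TGACNNNGC stood in 3 of the 9 windows, and in 12.1% of the 33465 windows of all genes. It lay 17 to 9 bases before the first start of Gsta3 and 61 to 53 bases before that of Gstp1, both on the gene's strand, and 36 to 44 bases after the start of Gsta2 on the opposite strand. GCGTG stood in 4 of the 9 windows, against 29.7% of all, namely at the second start of Gsta3, and at Gsta2, Gsta4 and Gstp1. No match of one motif overlapped a match of the other in these 9 windows. The windows of Mgst1, Gstm1, Gstm2 and Gstm3 held neither set of letters. Among the genes with TGACNNNGC, the groups separated in Gsta3 and Gstp1 and overlapped in Gsta2, and Mgst1 separated without it. A match is only a run of letters, and no binding was measured. Bases outside the windows were not searched, so a missing match says nothing about elements further away.

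Levels of other cell types' markers were set beside these values. Over all features 17.6% were higher and 9.56% lower without overlap. The 6 red blood cell markers tested were higher without overlap in 6 cases, with a summed level of 429 to 499 in corn oil and 669 to 818 in o-nitroanisole. Collecting duct markers separated upward in 5 of 7 genes, with sums of 206 to 234 and 258 to 284. Loop of Henle markers separated downward in 2 of 3 genes, with sums of 458 to 506 and 381 to 412. The sums of the proximal tubule markers overlapped, but single markers did not all do so: 6 of 13 separated upward and 2 downward, between the gluconeogenic enzyme Pck1 at 0.57 ± 0.13 log2 and the transporter Slc7a13 at -1.41 ± 0.33, both named after their values were seen. These shifts run along the same groups as the separation of Gsta3, Gstp1 and Mgst1, and their part in it was not tested. Liver markers (4 tested) summed to 6.47, 2.49 and 0.733 in corn oil and 1.89, 3.87 and 1.39 in o-nitroanisole. Corn oil rat 1, highest in this sum, was also the highest control for Gstm1, Gstm2, Gstm3, Gstp1, Gstt1 and Mgst1 and the lowest for Gstt2. The lowest control in the sum was rat 3, while Gstm1, Gstm2 and Gstm3 were lowest in rat 2. Among treated rats number 2 was highest in the sum, in these 3 mu genes and in Gstt2, and lowest for Gsta2, Gsta4 and Mgst1. That part was not tested.

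Around the transferases, the steps of conjugation were read from lists of related genes. Of 15 other transferases and relatives tested, 0 passed in limma's default fit and 1, Gsta1, with trend and robust moderation. Unadjusted p-values were under 0.05 for 5, and the same 5 (Gsta1, Gsta6, Gsto1, Gstz1 and Mgst3) were higher without overlap. Over all features 11.8% were higher at that p and 17.6% were higher without overlap, and trend and robust moderation called 1.61%. Gstz1, the maleylacetoacetate isomerase of tyrosine breakdown, had levels of 22.8, 22.8 and 23.7 in corn oil and 31.8, 30.6 and 27.2 in o-nitroanisole, a difference of 0.37 ± 0.08 log2 (limma adjusted p = 0.124). The omega class genes Gsto1 and Gsto2 differed by 0.23 ± 0.09 and 0.15 ± 0.10, and Gstk1 of the kappa class by 0.10 ± 0.08. Ptges, Alox5ap and Ltc4s, which take part in eicosanoid synthesis, lay at 0.15 ± 0.10, -0.06 ± 0.10 and -0.46 ± 0.28, and a second Ltc4s probe at 0.18. Hpgds and Gstt4 were well above background on 0 of 6 arrays. The median over the 15 was 0.15 log2.

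Genes that make, recycle or supply glutathione had a median difference of -0.27 log2 over 7 tested genes. With limma 0 passed in either setting. At an unadjusted p under 0.05 there were 1 higher and 3 lower, against 11.8% and 7.12% of all features. Without overlap 2 were higher and 1 lower, against 17.6% and 9.56%. Gclm, the modifier subunit of the first synthetic step, had levels of 0.180, 0.104 and 0.126 in corn oil and 0.0633, 0.0638 and 0.0441 in o-nitroanisole (-1.24 ± 0.25 log2, limma adjusted p = 0.118). Its groups did not overlap. The catalytic subunit Gclc lay at -0.71 ± 0.23 and glutathione synthetase Gss at -0.44 ± 0.17, with overlap in both. The tested Gclc probes ran from -0.99 to -0.71. Glutathione reductase Gsr lay at 0.41 ± 0.09 and the oxoprolinase Oplah at 0.11 ± 0.06, both without overlap. Oplah, and below Lap3, Abcc3 and Txnrd1, are named to complete a count, a choice made after their values were seen.

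Downstream of conjugation, the 12 genes of the mercapturate pathway had a median difference of 0.04 log2. With limma 0 passed in either setting. At an unadjusted p under 0.05 there were 2 higher and 2 lower, against 11.8% and 7.12% of all features. Without overlap 2 were higher and 1 lower, against 17.6% and 9.56%. Ggt1, the brush border enzyme that takes off the glutamyl part, lay at -0.47 ± 0.17 log2, and the aminopeptidase Anpep at -0.72 ± 0.21, the latter without overlap. The dipeptidase Dpep1, the acetylating enzyme Nat8 and the deacetylase Acy3 lay at 0.17 ± 0.09, 0.05 ± 0.09 and 0.31 ± 0.09. The groups did not overlap in Acy3, nor in the peptidase Lap3 at 0.27 ± 0.09. The tested Lap3 probes ran from 0.02 to 0.27, and the brightest, which stands for the gene, gave the highest.

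Of 7 exporters, 0 passed with limma's default moderation and 2, Abcc2 and Abcc4, rose with trend and robust moderation (adjusted p = 0.0319 and 0.0295). At an unadjusted p under 0.05, and without overlap, 3 were higher: Abcc2 at 0.80 ± 0.11, Abcc4 at 0.94 ± 0.12 and Abcc3 at 0.24 ± 0.07, while Abcc1 lay at -0.03 ± 0.05. The brightest probe stands for each gene, and the 3 Abcc3 probes ran from 0.20 to 0.80. The tested Abcc1 probes ran from -0.41 to 0.03. In the NRF2 list 0 of 14 passed by default and 1, the epoxide hydrolase Ephx1, with trend and robust moderation (0.67 ± 0.06 log2, adjusted p = 0.0201). At an unadjusted p under 0.05, and without overlap, 4 were higher: Ephx1, the quinone reductase Nqo1 at 0.93 ± 0.25, the heme oxygenase Hmox1 at 1.15 ± 0.22 and the thioredoxin reductase Txnrd1 at 0.38 ± 0.08. The tested Txnrd1 probes ran from 0.16 to 0.43. Beside the exporter and NRF2 counts, 11.8% of all features were higher at that p and 17.6% were higher without overlap. Trend and robust moderation called 1.61% of all features, and 1.24% upward. Nfe2l2, which encodes NRF2, lay at 0.22 ± 0.14 and its inhibitor Keap1 at 0.06 ± 0.07, both with overlap. The NRF2 list leaves out the glutathione synthesis genes Gclc and Gclm, which lay lower, at -0.71 ± 0.23 and -1.24 ± 0.25 log2.

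**Figure D5:**
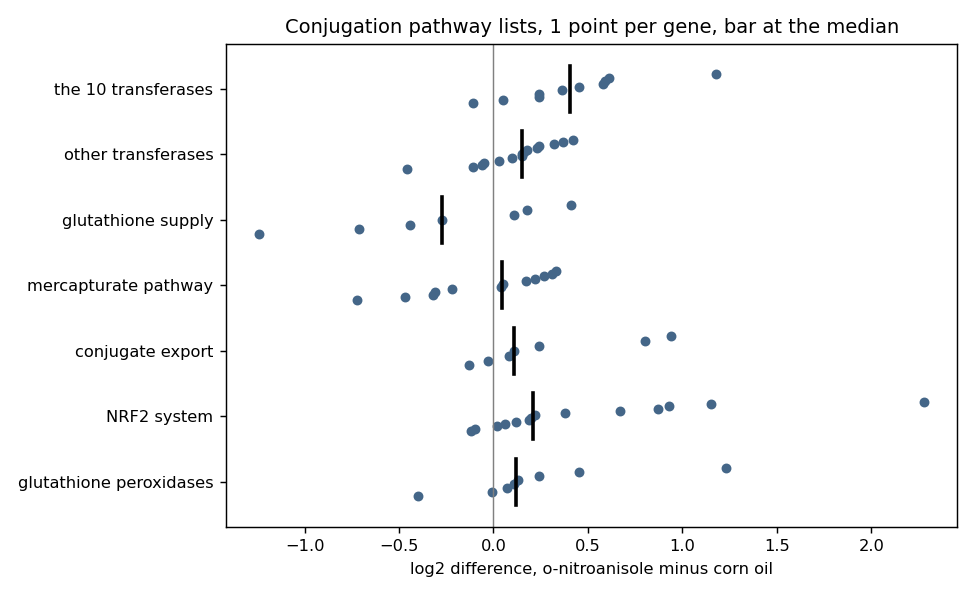
Each point is the log2 difference of 1 gene, o-nitroanisole minus corn oil, by pathway list, and the bar is the median of the list. The 10 transferases have a median of 0.40, the glutathione supply list lies at -0.27, and the other 5 lists lie between these values.

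Likeness over the 6 arrays was measured for the gene with the largest moderated t-statistic, Gsta3, and for the only one with a negative difference, Gsta2. The genes most like Gsta3 by Pearson's r were Dab2ip at 0.998, Comtd1 at 0.997, Nat8f5 at 0.996, Tmem126a at 0.996 and Camkk1 at 0.995, as a description over n = 6 arrays that share 1 group difference. Their own differences ranged from 0.26 to 0.80 log2. The genes most like Gsta2 included Wdr55 at 0.99, its chromosome 8 neighbour Gsta5 at 0.985, Snx19 at 0.977 and Mfsd14b at 0.976, and these 4 had differences from -0.11 to -0.06.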

How the data were processed

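Cortex RNA of 6 rats was read on one-colour (Cy3) arrays. Per the file headers, the deposited scanner files hold spot intensity, background-subtracted and detrended within the array. The submitters' processing notes name Agilent Feature Extraction 10.7. The deposited value table is a ratio on a linear scale: each column equalled 1 scanner file's processed signal over its 75th percentile, within 1% for 100% of probes well above background. Its corn oil columns 1, 2 and 3 held the files of replicates 3, 1 and 2.

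Non-control probes (61657, less 84 spike-ins) were named by unversioned RefSeq accession in a GRCr8 gene table. Processed signals were divided by the 75th percentile of non-control probes on that array and taken to log2. The percentile lay between 904.9 and 1041 units, and 66.4% to 71.5% of probes were well above background. Outlier spots were set to missing, no probe was saturated, and testing needed all arrays of at least 1 group to be well above background. A gene was its brightest probe and unnamed probes stayed as features, 32428 in all. In R 4.3.3, limma 3.58.1 compared the 2 groups of 3 arrays, with Benjamini-Hochberg adjustment over all features. Their number limits the precision. The fit was tested on simulated data. Files were read with pandas 2.3.3 and numpy 2.4.6 under Python 3.11.15, and plots drawn with matplotlib 3.10.9. The 10 genes, the lists, the naming rule and the tests were chosen with earlier results of these data known. All 10 genes were named, as were the other tested transferases and fixed genes of each list. Of the genes most like Gsta2, 1 is not reported here. Same-numbered arrays' deviations from their group means correlated at 0.091, 0.058 and 0.026, too weakly to treat equal numbers as pairs. The labels speak of 3 animals in each group.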

Additional observations from a re-analysis of the deposited data

How the results depend on the processing

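Each of the 10 differences was recomputed under 28 alternatives, giving 280 values. Of these 272 kept their direction and their side of the threshold, 1 passed it and 7 changed sign. This count does not measure stability, because much of it was fixed in advance. Settings that changed only the moderation, the block, the filter or the threshold left each difference as it was, as did the permutation. The threshold of 0.01 and the permutation could not give a pass. The trend and robust fits without 1 array repeat the differences of the default ones. Gsta3, at 0.45 log2, passed with trend and robust moderation (adjusted p = 0.0485), the count of members then being 1, and 0 of the 10 passed in those fits without 1 array. Over all its alternatives, its adjusted p ran from 0.0485 to 0.315. Gsta4 turned to -0.0889 under quantile scaling. That scaling also lowered Gsta3 from 0.45 to 0.31, Gstp1 from 0.61 to 0.48 and Mgst1 from 0.36 to 0.28. With 1 array left out Gsta4 lay between -0.0424 (without o-nitroanisole replicate 3) and 0.17, and at -0.0056 without corn oil replicate 2, in the trend and robust fits too. Gstm3 ranged from -0.047 to 0.59, below 0 without corn oil replicate 2. Features past the threshold, 0 in the default fit with 6142 at an unadjusted p under 0.05, numbered 522 with trend and robust moderation, 115 with normexp background correction and 359 at an adjusted p of 0.10. They numbered 0 to 8 on leaving out 1 array (8 without corn oil replicate 3) and 6, 58, 67, 25, 24 and 0 in the trend and robust fit without corn oil replicates 1, 2 and 3 and o-nitroanisole replicates 1, 2 and 3. The cause was not tested. Median scaling, no filter on dim probes, detection on all 6 arrays, outlier spots kept, single or averaged probes, weighted arrays, the deposited ratios and a threshold of 0.01 called 0. An exact permutation test of 3 against 3 cannot go below 0.10, the value it gave for Gsta3, Gstp1 and Mgst1. The replicate block, as a pairing that the data do not bear out, called 0 features and gave Gsta3 an adjusted p of 0.23. The block with the value table's numbers and the trend and robust fits without 1 array were chosen after seeing the data. Normexp used the median signal, since the files as read give no mean signal. A slide block could not be fitted, because no slide holds both groups, and naming by a gene name column was not run because the files as read have none. Low signal limits Gstm3.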

Other observations

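Glutathione peroxidases, which spend glutathione on peroxides, were read from a list of 8 genes beside the transferases. In limma's default fit 0 passed, and 1 passed with trend and robust moderation, which called 1.61% of all features. At an unadjusted p under 0.05 there were 2 higher and 1 lower, against 11.8% and 7.12% of all features. Without overlap 2 were higher and 1 lower, against 17.6% and 9.56%. The median difference was 0.12 log2. Gpx1, the abundant cytosolic enzyme, had levels of 218, 242 and 235 in corn oil and 308, 324 and 316 in o-nitroanisole, a difference of 0.45 ± 0.07 log2 (limma adjusted p = 0.0939, and 0.0248 with trend and robust moderation). Its groups did not overlap. Gpx3, the secreted enzyme made in the kidney, lay at 0.13 ± 0.10 with overlap. Gpx4 at 0.24 ± 0.07 and Gpx8 at -0.40 ± 0.12, named after their values were seen, did not overlap between groups either.

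Of the aryl hydrocarbon receptor list, 4 genes were tested. In limma's default fit 0 passed. At an unadjusted p under 0.05 there were 1 higher, Cyp1a1, and 1 lower, against 11.8% and 7.12% of all features. With trend and robust moderation 1 passed, again Cyp1a1, against 1.61% of all features. Cyp1a1 entered the test through the o-nitroanisole arrays alone, so these calls rest on undetected corn oil signals and carry no weight. This gene, a classical target of the receptor, was well above background on 0 corn oil arrays and on 3 o-nitroanisole arrays, at least 7.3-fold higher. That bound sets the treated mean against the mean, over the corn oil arrays, of the lowest signal well above background or the probe's own signal, whichever was higher. Ahrr, the receptor's repressor and also named after its value was seen, lay at -1.05 ± 0.19 log2 without overlap (limma adjusted p = 0.11). Such downward separation was seen in 9.56% of all features.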
